A study of Homo sapiens with 9 samples.

Results

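Accessible chromatin was described at 45 genes that build chromatin loops or carry signals along them: the insulator gene CTCF and its paralogue CTCFL, the genes of the cohesin ring and of its loaders and regulators, the looping factors YY1 and LDB1, the acetyltransferase genes EP300 and CREBBP, and 29 genes of the Mediator complex. All 45 were found among the 20037 protein-coding genes of the gene table. Each region went to the protein-coding gene with the closest start or end, up to 50 kb away. Regions that came within 1 kb of such a start or end are termed gene-end, and all others distal. By this rule the genes held 128 of 62774 regions in hypoxia with shZHX2, 149 of 77448 in hypoxia with shCtrl and 174 of 90959 in normoxia with shCtrl.

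The assay was ATAC-seq, which reads open chromatin from where a transposase can cut, and the cells were T47D, an established human breast cancer line of luminal type. Per the labels, 9 samples made 3 groups of 3: cells with a hairpin against ZHX2 (shZHX2) kept in hypoxia, cells with a control hairpin (shCtrl) kept in hypoxia, and shCtrl cells kept in normoxia. The cells had been infected with lentivirus and selected with hygromycin or puromycin, per the labels' protocols, so the controls too carried a vector and a hairpin. Not given in the sources used here were the hairpin sequence, how many hairpins or clones were used, how low the oxygen was and for how long. No normoxia group with shZHX2 was analysed here, so an effect of the hairpin in hypoxia cannot be told apart from one at any oxygen level. Each group gave 1 list of regions. There was no spread between replicates and no test, and a region is "called" where the list of the authors holds it. The series concerns ZHX2, a transcription factor with zinc fingers and homeodomains, and 3D chromatin in hypoxia. The regions show open DNA, not the amount of any protein, so they do not check the ZHX2 knockdown.

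Cohesin is a ring that extrudes loops of chromatin, and CTCF bound to DNA halts it, which sets many loop anchors. NIPBL and MAU2 load cohesin, WAPL releases it, and PDS5A and PDS5B take part in both its release and its retention. Mediator is a large complex that bridges activators at enhancers to RNA polymerase II at promoters. Its head and middle modules contact the polymerase, its tail binds activators, and its separable kinase module, built on CDK8 or a paralogue, restrains or tunes the complex. EP300 and CREBBP acetylate histones at active enhancers and promoters, and YY1 and LDB1 join enhancers to promoters by pairing with themselves.

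The identity of the cells was looked at first. Of 10 luminal breast markers, 9 were open at a gene end in each of the 3 lists, and ESR1, the oestrogen receptor gene, had none there but held 8 distal regions in hypoxia with shZHX2, 7 in hypoxia with shCtrl and 11 in normoxia. Of 3 basal markers, 0 had one in hypoxia with shZHX2, 1 in hypoxia with shCtrl and 1 in normoxia. Of 5 blood markers 4 had one in each list, of 4 stroma and endothelium markers 1, and of 4 liver and neuron markers 3. These lists are short, and blood markers and liver and neuron markers had gene-end regions too, whereas few of the basal or of the stroma and endothelium markers had one. Read depth per list is unknown.

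Every list held a gene-end region for each of the 45 genes, with shZHX2 as with shCtrl, and in hypoxia as in normoxia. Over all protein-coding genes the share with such a region was 70% in hypoxia with shZHX2, 72.3% in hypoxia with shCtrl and 74.2% in normoxia, and 69.5% had one in all 3 lists. None of the 45 genes thus had such a region in 1 list and none in another. Over all protein-coding genes, 0.469% had one with shZHX2 and not with shCtrl in hypoxia, and 2.71% the reverse. In shCtrl cells 0.474% had one in hypoxia and not in normoxia, and 2.34% the reverse, and 0.24% had one with shZHX2 in hypoxia and not in normoxia, and 4.35% the reverse. The highest-scoring gene-end region of each of the 45 genes stood in the upper 50% of its list by score, in all 3 lists. Most genes share this trait: of all protein-coding genes with a gene-end region, the highest-scoring one stood there for 88.8% in hypoxia with shZHX2, 89.6% in hypoxia with shCtrl and 90.2% in normoxia. The lowest such percentile was 58.7 in hypoxia with shZHX2, 65.9 in hypoxia with shCtrl and 68.4 in normoxia. The fold enrichment that the authors gave for these regions had a median of 6.86 in hypoxia with shZHX2, 6.39 in hypoxia with shCtrl and 6.52 in normoxia. Over all protein-coding genes, chosen in the same way, it was 6.14 in hypoxia with shZHX2, 5.86 in hypoxia with shCtrl and 5.67 in normoxia. Fold, score and −log10 q are the authors' values for each region within its own list. They are given side by side and were not compared between lists.

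**Figure D1:**
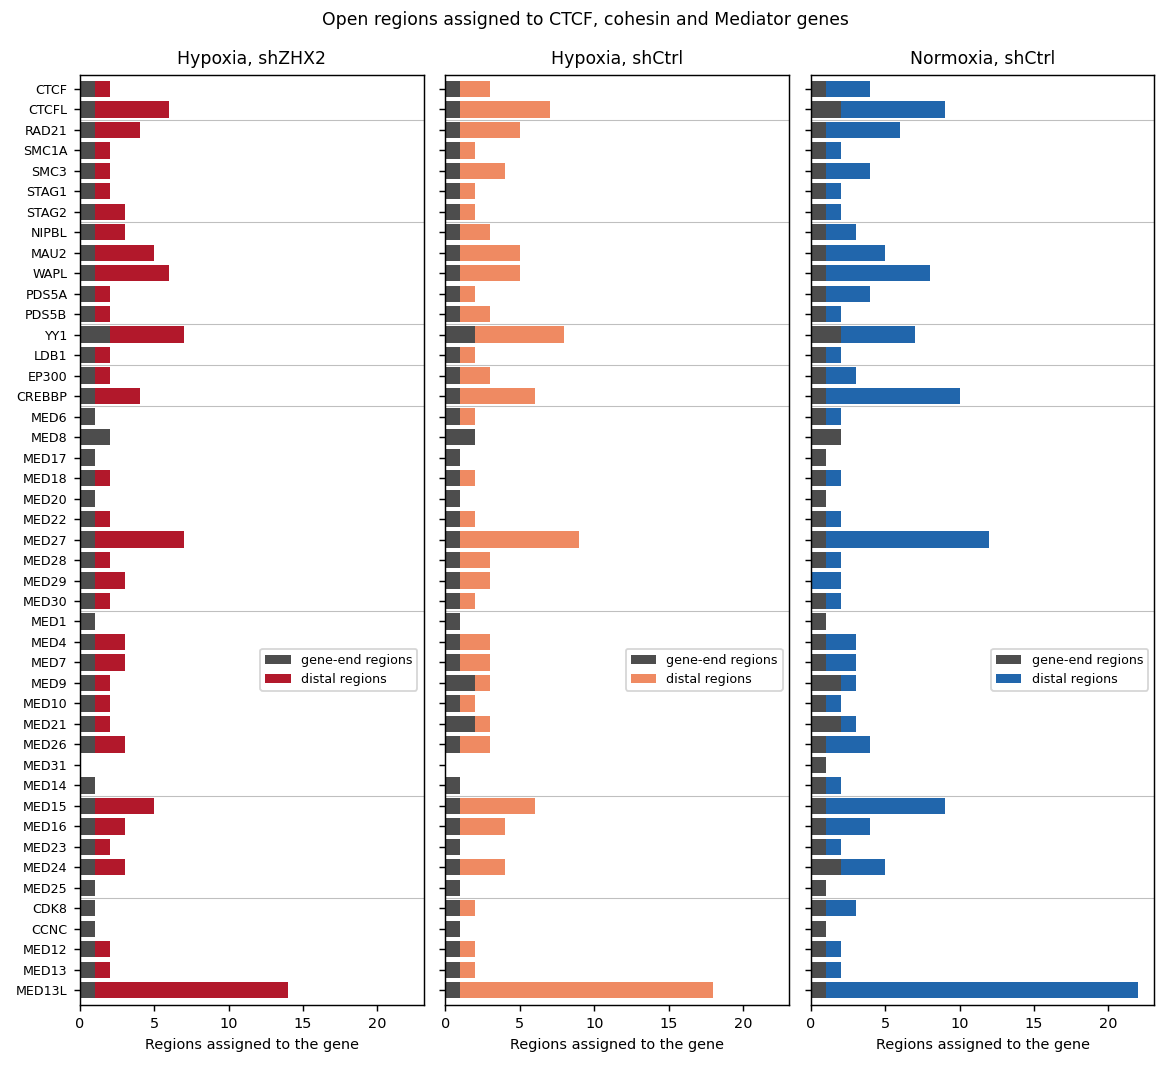
Number of regions assigned to each of the 45 genes (horizontal axis) in hypoxia with shZHX2 (left), hypoxia with shCtrl (middle) and normoxia with shCtrl (right); the dark part of a bar counts gene-end regions, the coloured part distal ones, and grey lines part the roles. MED13L holds the most in each list, 14 in hypoxia with shZHX2, 18 in hypoxia with shCtrl and 22 in normoxia, while most genes hold 1 to 3; MED31 and MED29 show no gene-end bar where the region at their start lay nearer to a neighbour's.

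CTCF and CTCFL differed at their promoters. CTCF, the ubiquitous insulator protein, had a region of 1607 bp over its start in hypoxia with shZHX2, of 1659 bp in hypoxia with shCtrl and of 1678 bp in normoxia. Its score percentile was 98 in hypoxia with shZHX2, 97.9 in hypoxia with shCtrl and 98.1 in normoxia. CTCFL, a paralogue with the same kind of zinc fingers that is normally active in male germ cells, had no region at its start in either hypoxia list. In normoxia it had a weak one at chr20:57524513-57524755 (hg38), 243 bp wide, with a fold of 3.08, a −log10 q of 14 and a score percentile of 13. The gene-end region by which CTCFL counts among the 45 in every list lay at the other end of the gene, its 3′ end. It had a fold of 7.76 in hypoxia with shZHX2, 6.06 in hypoxia with shCtrl and 4.91 in normoxia.

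The promoter windows of both genes, 250 bases before to 50 after an annotated start, are printed here to show how they differ in CpG, the dinucleotide that is dense at promoters open in most tissues. Capitals mark each CpG. Sequences are from RefSeq (GRCh38.p14, with the coordinates of hg38) and run 5′ to 3′ on the strand of the gene. CTCF has 1 annotated window and CTCFL has 3.
CTCF, chr16:67562276-67562575, plus strand: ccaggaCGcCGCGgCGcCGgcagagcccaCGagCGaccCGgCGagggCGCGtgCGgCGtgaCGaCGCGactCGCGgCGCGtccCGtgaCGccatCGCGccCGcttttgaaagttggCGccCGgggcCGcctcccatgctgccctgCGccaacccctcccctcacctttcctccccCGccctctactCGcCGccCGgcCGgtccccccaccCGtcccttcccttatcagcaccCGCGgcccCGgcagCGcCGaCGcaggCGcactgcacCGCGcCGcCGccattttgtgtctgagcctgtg
CTCFL, chr20:57524648-57524947, minus strand: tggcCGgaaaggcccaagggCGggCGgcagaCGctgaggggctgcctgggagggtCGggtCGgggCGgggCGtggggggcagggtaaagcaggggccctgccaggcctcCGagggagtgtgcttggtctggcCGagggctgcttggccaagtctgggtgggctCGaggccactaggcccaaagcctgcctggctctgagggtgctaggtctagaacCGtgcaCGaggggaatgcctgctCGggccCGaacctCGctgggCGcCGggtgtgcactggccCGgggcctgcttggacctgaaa
CTCFL, chr20:57525091-57525390, minus strand: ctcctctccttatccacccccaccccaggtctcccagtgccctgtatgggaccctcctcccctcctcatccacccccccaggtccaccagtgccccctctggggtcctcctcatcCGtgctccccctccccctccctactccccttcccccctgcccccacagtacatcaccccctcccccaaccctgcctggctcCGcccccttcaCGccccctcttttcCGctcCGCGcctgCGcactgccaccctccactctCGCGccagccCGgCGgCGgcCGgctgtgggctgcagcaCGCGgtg
CTCFL, chr20:57525603-57525902, minus strand: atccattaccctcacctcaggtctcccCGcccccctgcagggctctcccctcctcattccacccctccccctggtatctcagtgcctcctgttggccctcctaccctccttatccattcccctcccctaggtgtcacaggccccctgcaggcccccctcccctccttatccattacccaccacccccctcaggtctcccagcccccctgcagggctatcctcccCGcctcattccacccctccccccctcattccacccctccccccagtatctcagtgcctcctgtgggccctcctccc
The CTCF window held 46 CpG, an observed over expected ratio of 1.14. The 3 CTCFL windows held 19, 15 and 2, with ratios of 0.533, 0.531 and 0.1. The normoxia region touched the first of them, and no list had a region on the other two. The median ratio was 0.923 over the 45 windows of the 36 genes with an entry and 0.737 over 22199 windows of protein-coding genes. The medians of GC content were close, at 63.7% and 62.3%. Of the 45 windows 93.3% were touched by a region in all 3 lists, against 61.9% of the 22199. The ratio was not taken over touched windows alone, so the 2 medians do not set like beside like. Entries were not matched for RAD21, MED6, MED8, MED13, MED14, MED21, MED22, MED28 and MED30. Of the 36 genes, 35 had a promoter window touched by a region in hypoxia with shZHX2, 35 in hypoxia with shCtrl and 36 in normoxia, and CTCFL was the exception in both hypoxia lists. In all 3 lists it was 35 of 36, against 68.2% over 15843 genes with an entry. Over 15843 protein-coding genes with an entry the share was 68.7% in hypoxia with shZHX2, 69.8% in hypoxia with shCtrl and 71.2% in normoxia.

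**Figure D2:**
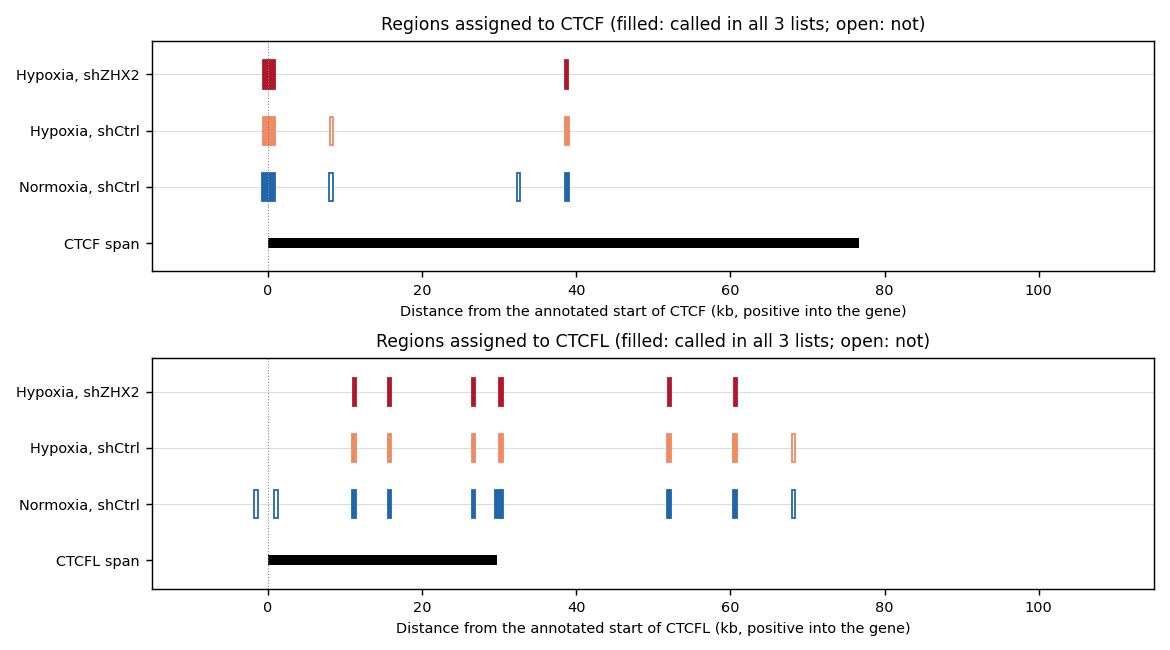
Regions assigned to CTCF (upper panel) and CTCFL (lower panel), by distance from the annotated start of the gene in kb, positive into the gene; rows are hypoxia with shZHX2, hypoxia with shCtrl, normoxia with shCtrl and the span of the gene. Filled boxes are called in all 3 lists and open boxes are not; narrow regions are drawn at a minimum width. CTCF has a filled box over its start in every list, whereas at the start of CTCFL only normoxia shows boxes, both open.

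Away from the start, CTCF held 1 distal region in hypoxia with shZHX2, 2 in hypoxia with shCtrl and 3 in normoxia. A site inside the gene at chr16:67570625-67570855 in hypoxia with shCtrl had a fold of 2.87, and its normoxia counterpart at chr16:67570581-67570829 had 3.41. It was not called with shZHX2. A second site, chr16:67594797-67595259, was called in normoxia alone, with a fold of 3.62. CTCFL held 5 distal regions in hypoxia with shZHX2, 6 in hypoxia with shCtrl and 7 in normoxia. Of these, 5 were called in every list. The one with the highest fold in each list, chr20:57509660-57510034 in the shZHX2 list, lay inside the gene. It had a fold of 6.95 in hypoxia with shZHX2, 8.72 in hypoxia with shCtrl and 7.62 in normoxia. By score, another, chr20:57514187-57514686, stood slightly above it with shZHX2, at a percentile of 68.9 against 68.

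The 5 genes of the cohesin ring were open at a gene end in all 3 lists, which was the start for the 4 with a promoter entry. For RAD21, without one, which end is the start was not looked up. SMC1A and SMC3 encode its long ATPase arms, RAD21 the kleisin that closes it, and STAG1 and STAG2 alternative subunits that dock CTCF. The start region of SMC1A had a fold of 6.98 in hypoxia with shZHX2, 6.92 in hypoxia with shCtrl and 6.56 in normoxia. That of SMC3 had 6.98 in hypoxia with shZHX2, 6.66 in hypoxia with shCtrl and 6.52 in normoxia, and the gene-end region of RAD21 had 6.96 in hypoxia with shZHX2, 6.92 in hypoxia with shCtrl and 6.81 in normoxia. The STAG1 region had score percentiles of 98.3 in hypoxia with shZHX2, 98.4 in hypoxia with shCtrl and 98.7 in normoxia. The STAG2 start region stood lower in every list, at 65 in hypoxia with shZHX2, 65.9 in hypoxia with shCtrl and 68.4 in normoxia. Its fold was 3.64 in hypoxia with shZHX2, 3.53 in hypoxia with shCtrl and 3.38 in normoxia, against 5 for STAG1 in hypoxia with shZHX2, 4.97 in hypoxia with shCtrl and 4.99 in normoxia. The STAG2 region was also wide, 2208 bp in hypoxia with shZHX2, 1898 bp in hypoxia with shCtrl and 2360 bp in normoxia, and touched all 3 annotated STAG2 promoter windows in every list.

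Away from gene ends, the ring genes held 8 distal regions in hypoxia with shZHX2, 10 in hypoxia with shCtrl and 11 in normoxia. SMC1A and STAG1 each held 1, called in all 3 lists. SMC3 held 1 in hypoxia with shZHX2 and 3 in each of the other lists. Both sites not called with shZHX2 were weak in hypoxia with shCtrl, with folds of 2.99 at chr10:110547211-110547463 and 3.27 at chr10:110600544-110600781. RAD21 held 3 in hypoxia with shZHX2, 4 in hypoxia with shCtrl and 5 in normoxia. STAG2 had the opposite case: a region at chrX:123976744-123976987, inside the gene, was called with shZHX2 alone, at a fold of 3.3 and a score percentile of 8.61. A further STAG2 region, 2388 bp from the start in the shZHX2 list, was called in all 3 lists. It scored above the STAG2 start region, at percentiles of 77.7 in hypoxia with shZHX2, 78 in hypoxia with shCtrl and 76.1 in normoxia.

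Among the loaders and regulators, NIPBL and MAU2 had every region called in all 3 lists, 3 regions for NIPBL and 5 for MAU2 in each. The NIPBL start carried the widest region of any of the 45 genes in 2 of the lists: 3598 bp in hypoxia with shZHX2, 2262 bp in hypoxia with shCtrl and 3575 bp in normoxia. Its fold was low, at 3.22 in hypoxia with shZHX2, 3.64 in hypoxia with shCtrl and 3.32 in normoxia. MAU2 had a fold of 7.96 at its start in hypoxia with shZHX2, 6.38 in hypoxia with shCtrl and 7.05 in normoxia. WAPL held 6 regions in hypoxia with shZHX2, 5 in hypoxia with shCtrl and 8 in normoxia. A WAPL region at chr10:86507452-86507825 was called with shZHX2 alone (fold 3.48), and 3 were called in normoxia alone, with folds of 2.91, 3.62 and 4.29. One of those 3, chr10:86506664-86506864, lay next to the shZHX2 region without touching it. PDS5A had 2 regions in normoxia alone, with folds of 3.08 and 3.45, and PDS5B had 1 in hypoxia with shCtrl alone, chr13:32804664-32805021, with a fold of 2.9.

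YY1, a zinc finger protein that binds promoters and enhancers and pairs them, had the highest-scoring gene-end region of the 45 genes with shZHX2, at a score percentile of 99. In hypoxia with shZHX2 regions of 916 and 937 bp lay on either side of the start, and in hypoxia with shCtrl regions of 1066 and 925 bp. In normoxia a single region of 2731 bp, chr14:100238039-100240769, covered both. A second normoxia call, 200 bp at the far end of YY1 with a fold of 1.93, had no counterpart in hypoxia. YY1 also had 1 distal region in hypoxia with shCtrl alone, chr14:100207687-100208027, with a fold of 2.92. LDB1, an adaptor that dimerises to join distant elements, had every region called in all 3 lists. Its annotated promoter window lies inside the gene span and was touched by a region in every list, of 505 bp in hypoxia with shZHX2, 690 bp in hypoxia with shCtrl and 931 bp in normoxia, which the rule gave to the neighbouring gene PPRC1.

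EP300 and CREBBP, paralogous acetyltransferases, were open at their starts in every list. EP300 had a fold of 4.87 in hypoxia with shZHX2, 5.14 in hypoxia with shCtrl and 4.72 in normoxia. CREBBP had 4.17 in hypoxia with shZHX2, 4.25 in hypoxia with shCtrl and 4.02 in normoxia. EP300 held 1 distal region in hypoxia with shZHX2, 2 in hypoxia with shCtrl and 2 in normoxia, and CREBBP held 3 in hypoxia with shZHX2, 5 in hypoxia with shCtrl and 9 in normoxia. Of the 9 CREBBP regions in normoxia, 5 had no counterpart in hypoxia with shCtrl, against 21.7% over all distal regions of that list. The folds of these 5 ran from 2.8 to 3.66, and none had a score percentile above 28.7. In the lowest 3 score deciles of normoxia, 73.4%, 57.3% and 39.2% of all distal regions had no counterpart in hypoxia with shCtrl. A CREBBP region at chr16:3896411-3896763 in normoxia, with a fold of 6.81, was called in every list.

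The Mediator genes were open at a gene end across all modules, and those with a promoter entry had a region on a promoter window in every list. The median fold of the strongest gene-end region was 6.99 in hypoxia with shZHX2, 6.67 in hypoxia with shCtrl and 6.75 in normoxia for the 10 head genes, those at the junction of head and tail included. For the 9 genes of the middle and scaffold it was 7.61 in hypoxia with shZHX2, 7.65 in hypoxia with shCtrl and 6.64 in normoxia. For the 5 tail genes it was 6.98 in hypoxia with shZHX2, 5.87 in hypoxia with shCtrl and 5.89 in normoxia. For the 5 kinase module genes it was 6.42 in hypoxia with shZHX2, 6.14 in hypoxia with shCtrl and 6.24 in normoxia. The 5 loaders and regulators of cohesin had a median of 4.82 in hypoxia with shZHX2, 4.91 in hypoxia with shCtrl and 4.91 in normoxia, below each Mediator module in every list. Within the shZHX2 list the highest folds of the 45 genes were those of MED9, a middle subunit, at 9.71, MED1, the subunit that binds nuclear receptors, at 9.42, and MED24, a tail subunit, at 9.26. In hypoxia with shCtrl they were those of the tail subunit MED23 at 9.58, MED1 at 9.26 and the middle subunit MED4 at 8.99. In normoxia MED1 had 9, the head subunit MED8 8.4 and MED9 8.23. MED1 was thus among the 3 highest in every list. Its only region was the one at its start, 784 bp in hypoxia with shZHX2, 763 bp in hypoxia with shCtrl and 843 bp in normoxia.

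The lowest 3 folds in hypoxia with shZHX2 were those of NIPBL at 3.22, LDB1 at 3.44 and STAG2 at 3.64. In hypoxia with shCtrl they were those of MED13L at 2.96, LDB1 at 3.08 and STAG2 at 3.53, and in normoxia those of MED13L at 2.93, LDB1 at 2.95 and NIPBL at 3.32. The LDB1 values are those of the region at its 5′ end, which the rule gave to PPRC1. MED13L, a paralogue of MED13 that links the kinase module to the core, combined its low fold with a high score, at percentiles of 85.7 in hypoxia with shZHX2, 80.9 in hypoxia with shCtrl and 85.1 in normoxia.

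Motifs were looked for in the 45 promoter windows, on both strands, as exact letters, and were set beside all 22199 coding windows and beside the 13735 of them touched by a region in all 3 lists. The motif AAGATGGCG, bound by YY1, was in 5 windows (11.1%), those of MED1, MED16, MED18, MED25 and CREBBP, against 2.41% of all coding windows and 3.81% of those touched in all lists. The ETS motif CCGGAAG was in 22.2% of the windows, against 12.8% and 18.6%, and GGGCGG, of SP and KLF factors, in 75.6%, against 56.3% and 73.3%. The hypoxia response element cores ACGTG and GCGTG, which differ in 1 letter and were counted apart, were in 17.8% and 46.7%, against 23% and 43% of all coding windows and 26.3% and 52.8% of those touched in all lists. For the other motifs the shares of the 45 windows, of all coding windows and of those touched in all lists were 33.3%, 34.7% and 35.2% for CCAAT of NF-Y, 13.3%, 7.42% and 9.57% for the core of the CTCF motif, and 6.67%, 6.15% and 3.87% for TGANTCA of AP-1. They were 4.44%, 9.47% and 4.68% for TATAAA, the TATA box, and 2.22%, 1.5% and 2.21% for the palindromic motif of NRF1. The oestrogen response element, a pair of inverted repeats with a 3-base gap, was in none of the 45 windows and in 0.036% of all coding windows. Of the 45 windows, 42 were themselves touched in all 3 lists. Over these the shares were 11.9% for the YY1 motif, 23.8% for ETS, 73.8% for GGGCGG, 19% for ACGTG and 45.2% for GCGTG. They were 35.7% for CCAAT, 14.3% for the CTCF core, 7.14% for TGANTCA, 4.76% for TATAAA and 2.38% for the NRF1 motif. Windows of 1 gene can overlap, matches of different motifs can share letters, and a match describes the letters only.

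The 5 windows with the YY1 motif are printed because YY1 is itself one of the 45 genes. All 5 were touched by a region in every list, as were 93.3% of the 45 windows. Of the 535 coding windows with this motif, 523 were. Capitals mark the motif, which reads AAGATGGCG or, on the other strand, CGCCATCTT, and the annotated start follows the first 250 bases of each window.
MED1, chr17:39451214-39451513, minus strand: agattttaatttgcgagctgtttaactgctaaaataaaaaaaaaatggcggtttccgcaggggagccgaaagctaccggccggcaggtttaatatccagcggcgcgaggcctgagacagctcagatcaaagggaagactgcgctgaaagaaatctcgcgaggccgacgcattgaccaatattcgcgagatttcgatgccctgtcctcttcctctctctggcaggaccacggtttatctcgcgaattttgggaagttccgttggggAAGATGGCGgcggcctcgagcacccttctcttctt
MED16, chr19:893138-893437, minus strand: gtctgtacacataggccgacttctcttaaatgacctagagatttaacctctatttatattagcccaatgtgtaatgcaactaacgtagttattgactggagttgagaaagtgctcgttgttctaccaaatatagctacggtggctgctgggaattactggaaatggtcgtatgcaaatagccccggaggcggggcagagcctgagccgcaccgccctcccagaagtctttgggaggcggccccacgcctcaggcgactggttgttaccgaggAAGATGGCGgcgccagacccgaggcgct
MED18, chr1:28328790-28329089, plus strand: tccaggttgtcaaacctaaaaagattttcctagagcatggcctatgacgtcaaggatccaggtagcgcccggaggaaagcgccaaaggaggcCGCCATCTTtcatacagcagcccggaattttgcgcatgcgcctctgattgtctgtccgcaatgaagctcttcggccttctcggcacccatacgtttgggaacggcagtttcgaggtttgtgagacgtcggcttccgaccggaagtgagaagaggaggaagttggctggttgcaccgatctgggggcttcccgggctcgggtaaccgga
MED25, chr19:49818039-49818338, plus strand: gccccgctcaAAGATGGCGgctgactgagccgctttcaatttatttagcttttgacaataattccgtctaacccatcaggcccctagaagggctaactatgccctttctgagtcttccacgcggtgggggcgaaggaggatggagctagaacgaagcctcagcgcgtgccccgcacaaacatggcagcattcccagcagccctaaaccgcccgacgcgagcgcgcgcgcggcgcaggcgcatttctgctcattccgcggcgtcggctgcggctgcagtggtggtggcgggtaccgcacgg
CREBBP, chr16:3880664-3880963, minus strand: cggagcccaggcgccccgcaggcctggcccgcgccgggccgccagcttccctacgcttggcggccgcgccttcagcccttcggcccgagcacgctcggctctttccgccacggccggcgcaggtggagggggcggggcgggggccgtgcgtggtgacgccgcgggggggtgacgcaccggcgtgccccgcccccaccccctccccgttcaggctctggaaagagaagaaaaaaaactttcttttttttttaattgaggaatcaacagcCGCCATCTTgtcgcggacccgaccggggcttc
The match began at base 266 of the MED1 window, 273 of the MED16 window and 269 of the CREBBP window, just past the start. In MED18 and MED25, which encode a head subunit and an activator-binding tail subunit, it lay upstream, at bases 93 and 11. The start region over the MED16 window, a tail subunit gene, had a fold of 6.98 in hypoxia with shZHX2, 5.3 in hypoxia with shCtrl and 4.61 in normoxia. That over the MED18 window had 7.02 in hypoxia with shZHX2, 6.76 in hypoxia with shCtrl and 6.91 in normoxia.

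The first comparison set shZHX2 against shCtrl in hypoxia, and few gene-end regions lacked a counterpart. Of the 46 gene-end regions of the 45 genes with shZHX2, 0 had no counterpart with shCtrl (Wilson 95% interval 0% to 7.71%), against 1.08% over all gene-end regions of that list. Of the 48 with shCtrl, 2 had no counterpart with shZHX2 (4.17%, interval 1.15% to 14%), against 6.17% over all. Both were weak and lay at the end of the gene away from its strong region: chr17:17493259-17493555 at MED9 had a fold of 2.79, and chr12:27039480-27039789 at MED21, another middle subunit, had 3.58. The strong regions of MED9 and MED21 were called in both lists. These intervals cover counting error only, and regions are not replicates.

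More distal regions lacked a counterpart. Of 82 distal regions with shZHX2, 3 were not called with shCtrl (3.66%, interval 1.25% to 10.2%), against 7.26% over all distal regions of that list. They belonged to STAG2, WAPL and MED23. The MED23 region, chr6:131631415-131631875, 3102 bp upstream of the gene, had a fold of 2.84 and was called in normoxia too. Of 101 with shCtrl, 22 in 16 genes were not called with shZHX2 (21.8%, interval 14.8% to 30.8%), against 26.6% over all. Both shares of the 45 genes thus lay below the background, with intervals that included it. The shCtrl list was longer, and with all lists cut to the length of the shortest by score the shares were 12.2% of the shZHX2 regions, against 15.5% over all, and 11.1% of the shCtrl regions, against 15.8% over all. MED13L had 4 of the 22, and CREBBP, SMC3 and MED27, a subunit between head and tail, had 2 each. The remaining 12 were spread 1 to a gene over CTCF, CTCFL, RAD21, PDS5B, YY1, EP300, MED6, MED28, MED15, MED16, MED24 and CDK8. With both classes of region together, 3 of the 45 genes had a shZHX2 region not called with shCtrl, against 11% of all protein-coding genes. A shCtrl region not called with shZHX2 was held by 18, against 36.8%. These percentages also count genes with no region in the list, which cannot lack a counterpart. Of genes with a region it was 2199 of 16853 for shZHX2 and 7377 of 17413 for shCtrl.

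**Figure D3:**
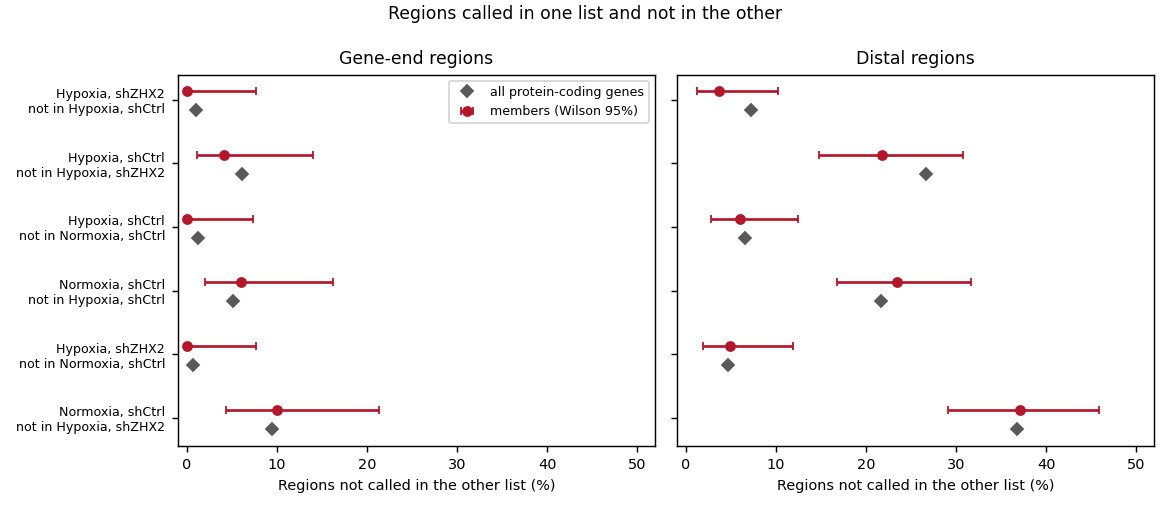
Share of regions of the first list that no region of the other list touches, in percent, for gene-end regions (left) and distal regions (right); circles with bars are the 45 genes with Wilson 95% intervals (counting error only), and diamonds are all regions within 50 kb of a protein-coding gene end. Each diamond lies within the interval of its circle, and the distal share is highest, at 37.1%, for normoxia regions not called in hypoxia with shZHX2.

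The regions not called with shZHX2 were mostly weak ones. Of the 22, 21 stood in the lower 50% of the shCtrl list by score, where 40.4% of the distal regions of the 45 genes were not called with shZHX2, against 47.5% over all. In the upper 50% it was 1 of 49, against 2.17% over all. That 1 was chr22:20583574-20583989, inside MED15, a tail subunit that many activators bind, with a fold of 4.54 and a score percentile of 52.6. Its normoxia counterpart had a fold of 3.63. The next strongest were at MED24, chr17:40035127-40035466 with a fold of 3.83, and at MED16, chr19:872696-873455 with 3.76. The MED16 site had a fold of 4.54 in normoxia, at a score percentile of 66.4.

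The second comparison set hypoxia against normoxia in shCtrl cells. Of the 48 gene-end regions in hypoxia, 0 had no counterpart in normoxia (interval 0% to 7.41%), against 1.26% over all. Of the 50 in normoxia, 3 had none in hypoxia (6%, interval 2.06% to 16.2%), against 5.17% over all. These were the CTCFL start described above, the far end of YY1, and chr17:40019649-40019848 at the 3′ end of MED24, with a fold of 2.5. The highest score percentile of the 3 was 25.3.

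Of 101 distal regions in hypoxia, 6 were not called in normoxia (5.94%, interval 2.75% to 12.4%), against 6.57% over all. They belonged to MED13L, with 2, and to CREBBP, MED28, PDS5B and YY1. The highest of their score percentiles was 19.8. Of 124 in normoxia, 29 in 13 genes were not called in hypoxia (23.4%, interval 16.8% to 31.6%), against 21.7% over all. With lists of equal length it was 11.1% of the hypoxia regions not called in normoxia, against 11.4% over all, and 11.1% of the normoxia regions not called in hypoxia, against 11.7% over all. MED13L had 6, CREBBP 5, WAPL, MED15 and MED27 3 each, PDS5A 2, and CTCF, CTCFL, RAD21, MED26, MED14, MED23 and CDK8 1 each. With both classes of region together, 5 of the 45 genes had a hypoxia region not called in normoxia, against 12.3% of all protein-coding genes. A normoxia region not called in hypoxia was held by 15, against 36.1%. Of genes with a region in the list it was 2460 of 17413 for hypoxia and 7240 of 17727 for normoxia. As with the hairpin, 28 of the 29 were in the lower 50% by score. In the 5 lowest score deciles, from the lowest up, 9 of 12, 8 of 16, 6 of 14, 2 of 9 and 3 of 12 were not called in hypoxia. Over all distal regions of those deciles it was 73.4%, 57.3%, 39.2%, 21.4% and 8.99%.

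**Figure D4:**
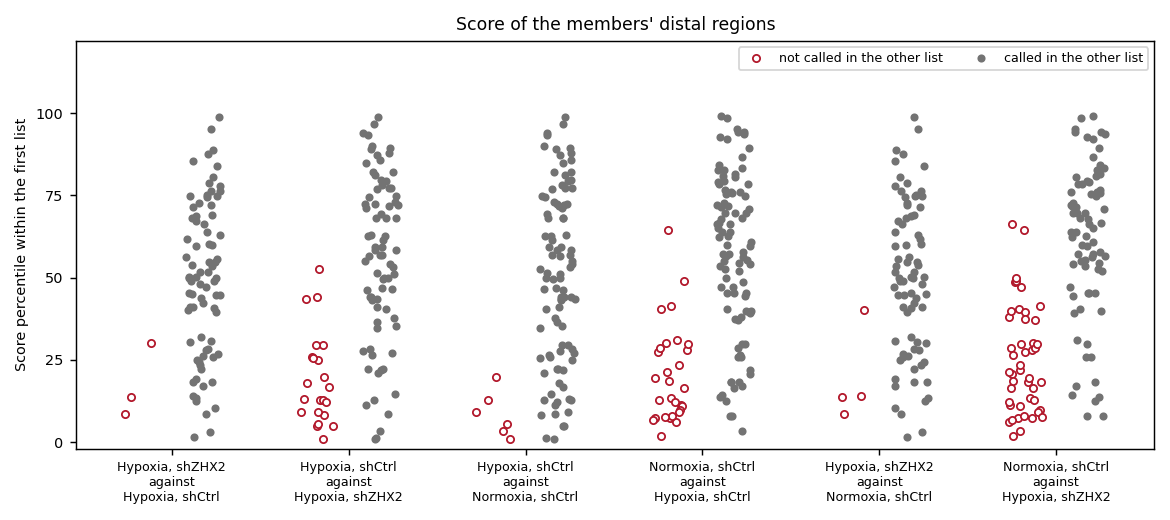
Score percentile within the first list (vertical axis) of every distal region of the 45 genes, for each ordered pair of lists; open circles are regions that the other list does not call and grey dots are regions that it does. Open circles lie low in every pair, the highest of them at 66.4, and the column for hypoxia with shCtrl against hypoxia with shZHX2 has 1 open circle above 50.

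The remaining 1 of the 29 was at MED13L. The region chr12:116280599-116280909, 2906 bp upstream of the gene, had a score percentile of 64.5 in normoxia and a −log10 q of 69.2, with a fold of 2.31. In the upper 50% of normoxia by score, it was the only 1 of 61 distal regions not called in hypoxia with shCtrl. That share was 1.64% (interval 0.29% to 8.72%), against 0.636% over all. The MED13L region was not called with shZHX2 either.

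MED13L held the most regions of the 45 genes, 14 in hypoxia with shZHX2, 18 in hypoxia with shCtrl and 22 in normoxia. MED27 held 7 in hypoxia with shZHX2, 9 in hypoxia with shCtrl and 12 in normoxia, and CREBBP 4 in hypoxia with shZHX2, 6 in hypoxia with shCtrl and 10 in normoxia. CTCFL held 6 in hypoxia with shZHX2, 7 in hypoxia with shCtrl and 9 in normoxia, and MED15 5 in hypoxia with shZHX2, 6 in hypoxia with shCtrl and 9 in normoxia. MED13L spans 319 kb, against a median of 35.3 kb for the 45 genes. STAG1, at 416 kb, had 2 in each list, and NIPBL, at 190 kb, had 3. Regions more than 50 kb from both ends of these long genes were not counted. Whether length bears on the counts was not tested. The MED13L regions gathered within about 50 kb of either gene end because the rule admits no others. Among its sites, 2 were called in both hypoxia lists and not in normoxia: chr12:116236149-116236544 in the shZHX2 list, with a fold of 4.58 with shZHX2 and 2.89 with shCtrl, and chr12:116259612-116260441, with a fold of 2.45 with shZHX2 and 1.99 with shCtrl. They were the only sites of this pattern among the 132 merged distal sites of the 45 genes (1.52%, interval 0.416% to 5.36%), against 0.855% over all distal sites. Its strongest region, beyond the 3′ end at chr12:115916908-115917628 in the shZHX2 list, was called in all lists, with a fold of 9.3 in hypoxia with shZHX2, 6.84 in hypoxia with shCtrl and 8.47 in normoxia.

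**Figure D5:**
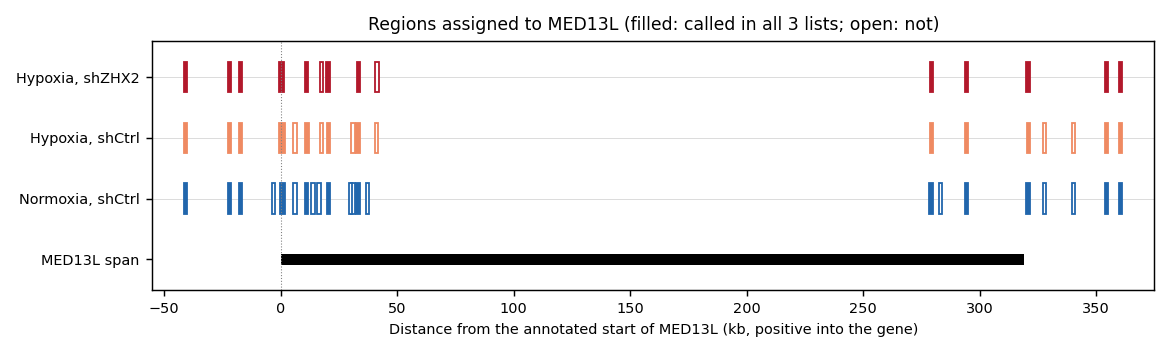
Regions assigned to MED13L by distance from its annotated start in kb, positive into the gene, in hypoxia with shZHX2, hypoxia with shCtrl and normoxia with shCtrl, with the gene span below. Filled boxes are called in all 3 lists, open boxes are not, and narrow regions are drawn at a minimum width. Regions more than 50 kb from both gene ends were not assigned and are not drawn. In normoxia these include further regions not called in all 3 lists. The open box just left of the start, called in normoxia alone, is the one with a score percentile of 64.5.

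The third comparison set shZHX2 in hypoxia against shCtrl in normoxia, which differ in both hairpin and oxygen. Of the 46 gene-end regions with shZHX2, 0 had no normoxia counterpart (interval 0% to 7.71%), against 0.69% over all, and of the 50 in normoxia, 5 had none with shZHX2 (10%, interval 4.35% to 21.4%), against 9.5%. Of the 82 distal regions with shZHX2, 4 had none in normoxia (4.88%, interval 1.91% to 11.9%), against 4.65%. Of the 124 in normoxia, 46 in 17 genes had none with shZHX2 (37.1%, interval 29.1% to 45.9%), against 36.7%. MED13L had 10 of the 46, CREBBP 6, MED27 5, MED15 4 and WAPL 3. With lists of equal length the distal shares were 17.1% of the shZHX2 regions, against 16% over all, and 16% of the normoxia regions, against 16.7% over all. The share of gene-end normoxia regions was then 2.22%, against 3.46% over all. With both classes of region together, 3 of the 45 genes had a shZHX2 region not called in normoxia, against 7.32% of all protein-coding genes. A normoxia region not called with shZHX2 was held by 20, against 49.4%. Of genes with a region in the list it was 1467 of 16853 for shZHX2 and 9902 of 17727 for normoxia. Each list enters 2 of the 3 comparisons, so they are not independent of one another.

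Merged over the lists, 45 of the 50 gene-end sites of the genes were called in all 3 (90%, interval 78.6% to 95.7%), against 88.4% over all gene-end sites. Of the 132 distal sites, 77 were (58.3%, interval 49.8% to 66.4%), against 56.3%. Normoxia alone had 28 of the 132 (21.2%, against 17.8% over all), and both shCtrl lists without shZHX2 had 18 (13.6%, against 16.3%). For 21 of the 45 genes (46.7%) every region had a counterpart in both other lists, against 36.8% of the 17973 protein-coding genes with a region. By role these were 2 of 5 ring genes, 2 of 5 loaders and regulators, 1 of 2 looping factors, 7 of 10 head genes, 5 of 9 middle and scaffold genes, 1 of 5 tail genes and 3 of 5 kinase module genes, and neither the insulator genes nor the acetyltransferase genes. In the kinase module these were CCNC, the cyclin partner of CDK8, MED12, which activates CDK8, and MED13. A gene with fewer regions has fewer that can lack a counterpart.

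Gene-end regions made up 35.9% of the regions of the 45 genes in hypoxia with shZHX2, 32.2% in hypoxia with shCtrl and 28.7% in normoxia. Over all regions the share was 21.5% in hypoxia with shZHX2, 18.3% in hypoxia with shCtrl and 16.3% in normoxia. The regions beyond 50 kb of any gene end count in the background and not for the 45 genes, so these shares are not like for like. Among genes with a gene-end region in all 3 lists, as all 45 have, distal regions were 23544 of 36916 in hypoxia with shZHX2. They were 29089 of 42753 in hypoxia with shCtrl and 34661 of 48597 in normoxia. For the 45 genes the counts were 82 of 128, 101 of 149 and 124 of 174, which are close to the same shares. The median width of the gene-end regions of the 45 genes was 1155 bp in hypoxia with shZHX2 (1055.5 bp over all gene-end regions), 1137.5 bp in hypoxia with shCtrl (1042 bp over all) and 1167.5 bp in normoxia (1095 bp over all). That of their distal regions was 455.5 bp in hypoxia with shZHX2 (417 bp over all distal regions), 466 bp in hypoxia with shCtrl (416 bp over all) and 497 bp in normoxia (452 bp over all). Of the distal regions, 34 of 82 in hypoxia with shZHX2, 41 of 101 in hypoxia with shCtrl and 56 of 124 in normoxia lay inside the gene they were assigned to. Outside any protein-coding gene lay 45 in hypoxia with shZHX2, 56 in hypoxia with shCtrl and 65 in normoxia. No background was taken for these counts inside and outside genes. Of the 45 genes, 10 had no distal region in hypoxia with shZHX2, 9 in hypoxia with shCtrl and 7 in normoxia. Of the 13925 protein-coding genes with a gene-end region in all 3 lists, it was 4778 in hypoxia with shZHX2, 4185 in hypoxia with shCtrl and 3706 in normoxia.

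The 50 kb limit left some regions out. The region nearest inside it was a MED27 region, 49159 bp away in hypoxia with shZHX2, 49101 bp in hypoxia with shCtrl and 49114 bp in normoxia. The nearest outside was 52525 bp away in hypoxia with shZHX2, at MED27, 51326 bp in hypoxia with shCtrl and 51271 bp in normoxia, both at MED13L. In all, 63 regions in hypoxia with shZHX2, 77 in hypoxia with shCtrl and 101 in normoxia had one of the 45 genes nearest but lay beyond the limit. Of the 45 genes, 8 shared an end within 1 kb with another protein-coding gene (17.8%, against 28.5% over all), among them SMC1A with RIBC1 and MED31 with C17orf100, and there a region cannot be told apart between the partners.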

How the data were processed

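ATAC-seq was measured in 9 samples of T47D cells, and the files used were 3 lists of called regions, 1 per group of 3 samples, in a layout of 9 columns without a header. Per the submitters' processing notes, FastQC, Bowtie2, SAMtools and MACS2 were used with the build hg38; no version or setting is stated. How samples were combined, and whether reads were shifted for the transposase, is not given in the sources used here. The deposited lists hold, for each region, a score, a fold (the ratio to background of the authors' caller), a −log10 p-value and a −log10 q-value. The score equals 10 times the −log10 q without its decimals, and no region has a −log10 p under 10. Read depth is unknown.

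Regions on chromosomes 1 to 22, X and Y were assigned to genes of RefSeq GRCh38.p14, which gives gene ends and no strand; strand was taken from the promoter windows. Ties in distance went to the gene end nearer the middle of the region. A region had a counterpart where the other list held one sharing 1 bp or more. Scripts used Python 3.11.15, pandas 2.3.3, NumPy 2.4.6, SciPy 1.17.1 and matplotlib 3.10.9, and the assignment was tested on simulated data. Shares have Wilson 95% intervals (counting error only), and no test was made.

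The 45 genes, the other lists and the rule for naming genes were chosen with earlier results of these data known. Genes named with values are CTCF, CTCFL and the ring genes, genes whose gene-end call differs between lists, genes with a region called in hypoxia and not normoxia or with shZHX2 and not shCtrl, the 5 with most regions and the 5 with most regions not called in the other list, and the 3 highest and 3 lowest folds at a gene end. Sites given for further genes were chosen after their values were seen. Alternatives are in the closing section.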

Additional observations from a re-analysis of the deposited data

How the results depend on the processing

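Of 138 recomputed values, for 21 results under 7 settings, 126 stayed within the interval or within 1.5 times the reported count, and 12 moved. With assignment within 20 kb the 45 genes held 51 distal regions in hypoxia with shZHX2, 61 in hypoxia with shCtrl and 72 in normoxia. With the lists cut to 62774 regions each by score, normoxia held 81. Under that setting the hairpin shares came close to each other, whereas as reported they were 3.66% and 21.8%: 12.2% of the distal shZHX2 regions were not called with shCtrl in hypoxia, and 11.1% of the distal shCtrl regions were not called with shZHX2. Likewise 17.1% of distal shZHX2 regions were not called in normoxia, 11.1% of distal normoxia regions were not called in hypoxia with shCtrl and 16% not with shZHX2, and 2.22% of gene-end normoxia regions were not called with shZHX2. These lists are shorter by construction, and lack the weakest regions of hypoxia with shCtrl and of normoxia. With a −log10 q of at least 20, 12.1% of distal shZHX2 regions were not called with shCtrl, and with at least 50% overlap, 46.8% of distal normoxia regions were not called with shZHX2. Windows of 500 bp or 2 kb, and crediting regions to every one of the 45 genes with an end within 1 kb, moved none of the 21 results. The cause of the other moves was not tested. No paired analysis was possible because each group has 1 list and no values per sample, and leaving out a replicate could not be done for the same reason. Depth is unknown, so a weak region that is not called cannot be told apart from one that is closed.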

Other observations

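A further 28 genes of cohesin, condensin, Mediator and loop-linked factors outside the 45 were described in the same way. Of these, 26 were open at a gene end in each list, against 69.5% of all protein-coding genes open in all 3 lists. REC8, the meiotic kleisin, and SMC2, a condensin subunit, had none at a gene end in any. SMC2 held 2 distal regions in each list, called in all 3, whereas REC8 held 0. Of the 28, 14 shared an end within 1 kb with another protein-coding gene (50%, against 28.5% over all). There a region cannot be told apart between the partners. NCAPD2 and STAG3 counted as open in each list with 0 assigned regions. The 28 genes held 50 regions in hypoxia with shZHX2, 55 in hypoxia with shCtrl and 65 in normoxia. In hypoxia, 1 of the shZHX2 regions, at ESCO2, an acetyltransferase that locks cohesin on DNA, was not called with shCtrl (2%, against 5.43% over all regions within 50 kb of a protein-coding gene end), and 5 of the shCtrl regions were not called with shZHX2 (9.09%, against 21.3%). In shCtrl cells, 2 regions in hypoxia were not called in normoxia (3.64%, against 5.19%) and 12 in normoxia were not called in hypoxia (18.5%, against 17.8%). No difference between these genes and the 45 was tested.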
